A study of Homo sapiens with 3 samples.

Results

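The 40 genes described here encode the kinases, cyclins, checkpoint proteins, kinetochore subunits, spindle motors and transcription factors that carry a human cell through mitosis. They were chosen by symbol, and all 40 were found among the 62754 genes of the deposited table through their Ensembl identifiers in GENCODE release 44. RNA was sequenced in 3 replicates of MCF10A, a breast epithelial line that grows without limit in culture but forms no tumours. The cells had been transduced with an empty Retro-X Tet-One vector, which carries no gene to induce, had been selected with puromycin and received neither doxycycline nor another treatment. All replicates were labelled as batch 1 and, by the study's methods, RNA was taken 27 h after the cells were seeded, while they grew exponentially. Libraries were made from 300 ng of RNA depleted of ribosomal RNA. All samples belong to 1 condition, so no group could be compared with another. The labels do not say whether the replicates came from separate cultures or whether the line is a clone, so that SD values may measure technical spread only.

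Mitosis is started by CDK1, a kinase that needs cyclin A or cyclin B to act and that CDC25 phosphatases switch on by removing inhibitory phosphates. PLK1 and the Aurora kinases then drive centrosome maturation, spindle assembly and the correction of wrong attachments between microtubules and kinetochores. The spindle checkpoint holds CDC20 in check until all kinetochores are attached, after which the anaphase-promoting complex marks cyclin B and securin for destruction and separase opens the sister chromatids. Most of these genes are transcribed in waves that peak in G2 and mitosis, under FOXM1, B-MYB and the MuvB proteins, and proliferating cells such as MCF10A cells in exponential growth express them. In a bulk sample, more cells in mitosis and more RNA per mitotic cell cannot be told apart.

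Levels are given as TPM, which count reads per length of transcript, brought to the same sum in each library, so that levels of different genes can be compared. Taking the smallest step of each library as 1 read, totals came to 15273329, 15446347 and 11166546 reads in replicates 1, 2 and 3. The 10 epithelial marker genes were all at or above 10 TPM and summed to between 12806 and 16473 TPM per replicate, with KRT5, a basal keratin, the highest. The 6 fibroblast, 4 endothelial, 5 leukocyte and 5 meiosis markers summed to at most 14.4, 2.16, 3.99 and 1.49 TPM in any replicate, with 3, 1, 2 and 2 of these genes listed at 0 throughout and 2, 1, 1 and 1 at or above 1 TPM. The highest of each list were DCN at 9.05 TPM, PECAM1 at 1.77 TPM, CD14 at 1.96 TPM and DMC1 at 1.20 TPM, and both hormone receptor genes lay under 1 TPM, ESR1 the higher at 0.0345 TPM.

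Of the 40 mitotic genes, 39 had a mean at or above 1 TPM, the level at which the study calls a gene expressed, against 56.7% of 20046 protein-coding genes and 24.9% of all genes. At 10 TPM the counts were 38 of 40 genes and 41.7% of protein-coding genes. The median of the 40 means was 114 TPM, and 22 genes were at or above 100 TPM. Protein-coding genes at or above 1 TPM had a median of 24.9 TPM. The median mitotic gene stood at percentile 93.4 of all protein-coding genes, and the 38 genes at or above 10 TPM stood between percentiles 75.6 and 98.7. The 40 genes made up 0.640%, 0.610% and 0.517% of the summed TPM of replicates 1, 2 and 3, and 0.699%, 0.680% and 0.649% of the TPM of protein-coding genes. The 2 genes that fell far from the others, PRC1 and NUSAP1, share most of their exons with another annotated gene.

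**Figure D1:**
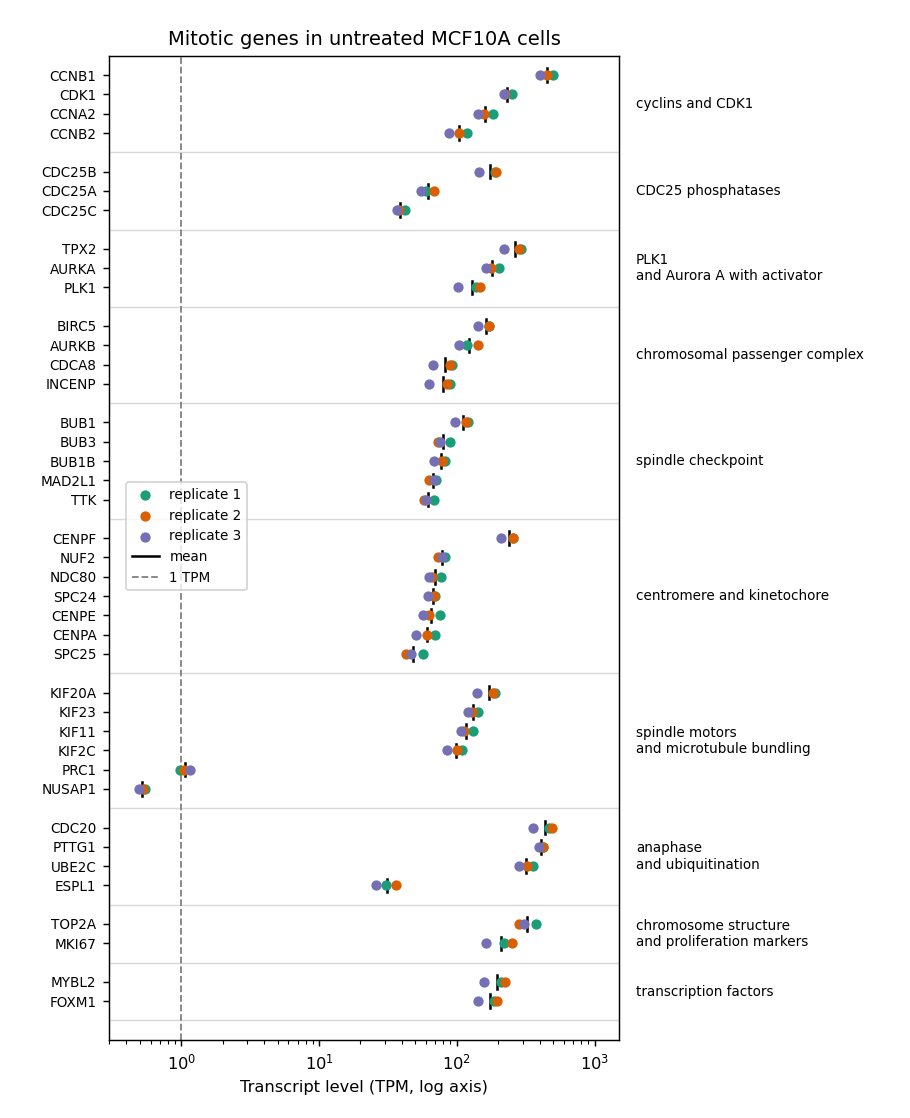
TPM (log axis) of the 40 mitotic genes in each of the 3 replicates (points) with their mean (black bar), grouped by role and sorted within each role, and the cutoff of 1 TPM as a dashed line. Of these genes, 38 lay between 31.0 TPM for ESPL1 and 449 TPM for CCNB1, while PRC1 and NUSAP1 lay at 1.06 and 0.522 TPM.

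Promoter sequences are shown for 5 of these genes to make visible the letters that mitotic promoters share. The cell cycle homology region, TTTGAA or less often TTCGAA, and the CCAAT box are the elements through which MuvB complexes and NF-Y are known to act on such genes. The stretch directly before the RefSeq start is given on the strand of the gene, 5′ to 3′ on GRCh38.p14, with both elements on either strand in capitals. CCNB1 is the highest of the 40 genes, CCNB2 its lower paralog, CDC20 the second highest, PLK1 the central mitotic kinase and PRC1 a gene read at about the cutoff of 1 TPM.
CCNB1, chr5:69167020-69167149, plus strand: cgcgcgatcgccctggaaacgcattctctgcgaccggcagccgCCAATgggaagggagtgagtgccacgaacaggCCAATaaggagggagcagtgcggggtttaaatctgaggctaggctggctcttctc
CCNB2, chr15:59105016-59105145, plus strand: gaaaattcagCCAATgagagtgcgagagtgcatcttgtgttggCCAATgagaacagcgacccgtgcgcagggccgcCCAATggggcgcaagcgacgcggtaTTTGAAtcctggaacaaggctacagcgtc
CDC20, chr1:43358851-43358980, plus strand: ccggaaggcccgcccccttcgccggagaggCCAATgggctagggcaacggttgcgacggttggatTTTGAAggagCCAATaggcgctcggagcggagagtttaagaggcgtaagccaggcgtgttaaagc
PLK1, chr16:23678759-23678888, plus strand: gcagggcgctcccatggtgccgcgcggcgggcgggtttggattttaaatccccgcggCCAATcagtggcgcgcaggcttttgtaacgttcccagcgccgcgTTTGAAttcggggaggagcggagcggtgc
PRC1, chr15:90994536-90994665, minus strand: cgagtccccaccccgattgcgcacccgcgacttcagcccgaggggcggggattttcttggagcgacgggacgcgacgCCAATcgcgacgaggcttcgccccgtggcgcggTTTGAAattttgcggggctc
The stretch of CCNB2 held 3 CCAAT boxes and TTTGAA at 29 bases before the start, and that of PLK1 held 1 CCAAT box and TTTGAA at the same distance. In CDC20 the element lay at 65 bases and in PRC1 at 20 bases before the start. The stretch of CCNB1 held 2 CCAAT boxes and neither TTTGAA nor TTCGAA. No other spelling of the cell cycle homology region was searched, so this stretch may hold a variant of it. Windows of 300 bases, with 250 before the start and 50 from it on, were found in the RefSeq table for 33 of the 40 genes. AURKA, BIRC5, BUB3, FOXM1, TPX2, TTK and UBE2C were not in it. TTTGAA or TTCGAA, on either strand, was in 21 of the 33 windows (63.6%), against 13.5% of 15345 windows of protein-coding genes and 16.6% of all 27305 windows. CCAAT was in 25 of 33 (75.8%), against 36.6% of windows of protein-coding genes, and 16 (48.5%) held it at least 2 times, against 12.7%. Both kinds of element stood together in 18 windows (54.5%), against 5.64%. The E2F letters TTTCGCGC, TTTGGCGC or TTTCCCGC were in 4 windows (12.1%, against 3.83%) and TATAAA was in 2 (6.06%, against 9.63%). High shares were not particular to the 40 genes. In 108 windows of the other mitosis genes listed further below, TTTGAA or TTCGAA was in 45.4%, CCAAT in 54.6% and both in 26.9%. At least 2 CCAAT were in 28.7% of these 108 windows, the E2F letters in 10.2% and TATAAA in 3.70%. These are matches of letters, and the binding of a factor was not measured.

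The means of the cyclins and of CDK1 were all above 100 TPM. CCNB1 (ENSG00000134057, cyclin B1, chromosome 5 of hg38 from 69167135 to 69178245, 9 exons) was the highest of the 40 genes with 495, 450.4 and 402 TPM in replicates 1, 2 and 3, a mean of 449 ± 46.4 TPM (SD, n = 3). CDK1, its kinase, was measured at 250.2, 225 and 222 TPM, CCNA2 (cyclin A2, active from S phase) at 182, 157 and 142 TPM and CCNB2 (cyclin B2) at 118, 104 and 88.5 TPM. Each of these 4 genes was highest in replicate 1 and lowest in replicate 3. CCNB1 was 1.93-fold above CDK1 (log2 ratio 0.95 ± 0.08, SD, n = 3), while CCNA2 stood 0.728-, 0.696- and 0.638-fold to CDK1. CCNB1 exceeded CCNB2 4.36-fold (log2 2.12 ± 0.06).

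The CDC25 phosphatases, which activate CDK1, lay in the order CDC25B, CDC25A, CDC25C in every replicate. CDC25B was measured at 189, 191 and 145 TPM, CDC25A at 60.1, 68.7 and 55.2 TPM and CDC25C at 42.3, 37.9 and 36.6 TPM. CDC25B was 4.46-fold above CDC25C (log2 ratio 2.16 ± 0.18, SD, n = 3) and CDC25A 1.57-fold above it (0.65 ± 0.18). CDC25C was the lowest but 1 of the 38 genes that lay above 10 TPM.

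PLK1, the kinase of centrosome maturation and mitotic exit, was measured at 137, 147 and 102 TPM. AURKA, which builds the spindle poles, was measured at 201, 178 and 163 TPM, and TPX2, which activates AURKA on spindle microtubules, at 295, 284 and 221 TPM. TPX2 was the higher of these partners in every replicate, with a log2 ratio of AURKA to TPX2 of -0.56 ± 0.12 (SD, n = 3). AURKA was above its paralog AURKB by 1.70-, 1.24- and 1.57-fold.

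The chromosomal passenger complex joins AURKB with INCENP, CDCA8 (borealin) and BIRC5 (survivin), and corrects attachments at the centromere. AURKB was measured at 119, 143 and 103 TPM, INCENP, the scaffold, at 88.6, 85.3 and 62.7 TPM, CDCA8 at 91.6, 89.0 and 67.4 TPM and BIRC5 at 173, 172 and 143 TPM. CDCA8 and INCENP were close to 1 to 1, with CDCA8 higher by 1.03-, 1.04- and 1.08-fold, a log2 ratio of 0.07 ± 0.03 (SD, n = 3). AURKB exceeded INCENP 1.55-fold (log2 0.63 ± 0.18) and BIRC5 exceeded it 2.08-fold (log2 1.05 ± 0.12). BIRC5 also acts as an inhibitor of apoptosis outside this complex.

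The means of the 5 genes of the spindle checkpoint ran from 61.7 to 112 TPM. BUB1, a kinase at the kinetochore, was measured at 121, 116 and 97.3 TPM and BUB1B, the BUBR1 subunit of the mitotic checkpoint complex, at 81.9, 78.3 and 68.8 TPM. BUB1 was 1.46-fold above BUB1B with little spread between replicates (log2 0.55 ± 0.04, SD, n = 3). BUB3, which binds both, was measured at 90.0, 72.5 and 75.3 TPM and stood 0.710-fold to BUB1. MAD2L1, the MAD2 protein that captures CDC20, had 70.8, 62.8 and 68.7 TPM, and TTK, the MPS1 kinase that starts checkpoint signalling, had 67.8, 57.9 and 59.4 TPM. In contrast to most members, BUB3, MAD2L1 and TTK were lowest in replicate 2. MAD2L1 was 0.152, 0.127 and 0.192 times the level of its target CDC20. Of the canonical transcript of BUB1B, 10.6% is shared with the annotated readthrough gene BUB1B-PAK6 and with PAK6. BUB1B-PAK6 was listed at 0 in every replicate.

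Among genes of centromere and kinetochore, CENPF, a large protein of the outer corona, was the highest at 257, 257 and 208 TPM. The NDC80 complex holds microtubules and is built from the proteins NDC80, NUF2, SPC24 and SPC25 in equal parts. Mean transcript levels of these 4 genes ran from 48.5 TPM for SPC25 to 77.8 TPM for NUF2, and the proteins were not measured. NDC80 was measured at 77.1, 66.6 and 63.3 TPM, NUF2 at 82.2, 72.6 and 78.6 TPM, SPC24 at 69.4, 68.8 and 62.0 TPM and SPC25 at 56.4, 42.7 and 46.3 TPM. NUF2 was the highest of these 4 genes and SPC25 the lowest in every replicate. NDC80 was 0.885-fold to NUF2 (log2 -0.18 ± 0.12) and 1.43-fold to SPC25 (log2 0.51 ± 0.11), and SPC24 was 1.38-fold to SPC25 (log2 0.47 ± 0.20, SD, n = 3 each). CENPA, the histone H3 variant that marks the centromere, was measured at 69.6, 61.2 and 50.4 TPM, and CENPE, a kinesin that carries chromosomes to the equator, at 76.2, 63.1 and 56.8 TPM. Both were lowest in replicate 3.

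KIF20A, KIF23, KIF11 and KIF2C, kinesins of the spindle, had means between 98.7 and 170.1 TPM. KIF20A (MKLP2), which moves the passenger complex to the central spindle, was measured at 188, 182 and 140.1 TPM. KIF23 (MKLP1), a part of centralspindlin, was measured at 143, 129 and 122 TPM, KIF11 (Eg5), which pushes spindle poles apart, at 131, 113 and 107 TPM, and KIF2C (MCAK), which depolymerizes microtubules, at 109.8, 101 and 85.3 TPM. All 4 were highest in replicate 1 and lowest in replicate 3.

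PRC1 and NUSAP1 bundle and crosslink spindle microtubules, and were the only genes of the 40 under 10 TPM. PRC1 (ENSG00000198901, chromosome 15 of hg38 from 90966040 to 90995629, minus strand) was measured at 0.978, 1.04 and 1.15 TPM from 21, 23 and 21 reads. These replicates lay on both sides of 1 TPM, as did those of 2.84% of protein-coding genes and 6.5% of all genes, and PRC1 was the 1 gene of the 40 for which this held. The exact Poisson intervals (95%, counting error only) ran from 0.606 to 1.5, from 0.661 to 1.56 and from 0.712 to 1.76 TPM. NUSAP1 (ENSG00000137804, chromosome 15 from 41320794 to 41381050, plus strand) was measured at 0.543, 0.528 and 0.496 TPM from 9, 9 and 7 reads, and was under the cutoff in every replicate. Its Poisson intervals ran from 0.248 to 1.03, from 0.241 to 1.002 and from 0.199 to 1.02 TPM, so that each reached 1 TPM. Of the canonical transcript of PRC1, 88.4% is shared on the same strand with ENSG00000284946, a protein-coding gene that also covers exons of VPS33B. Of that of NUSAP1, 97.8% is shared with ENSG00000285920, a protein-coding gene that joins exons of OIP5-AS1 and NUSAP1. No other gene of the 40 shared more than 10.6% of its canonical transcript, and 37 shared no base of it. Over all annotated exons CENPA shared bases too, with 1811 of its 1949 exonic bases held by no other gene on that strand. ENSG00000284946 itself had 110, 93 and 65 reads, and ENSG00000285920 had 0 reads in every replicate. Of all 997 protein-coding genes with at least 80% of the canonical transcript shared in this way, 88.4% were under 1 TPM, against 41.5% of the 17057 that share no base. If all counted reads lay in bases that no other gene on the strand holds, which was not measured, and the length were those bases alone (2342 of 5523 exonic bases for PRC1 and 475 of 3608 for NUSAP1), PRC1 would stand at 1.84 ± 0.151 and NUSAP1 at 3.46 ± 0.158 on the TPM scale, without rescaling the total (SD, n = 3 each). Whether shared exons set the values of these 2 genes was not tested, and the ratio of KIF23 to PRC1 is not given.

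**Figure D2:**
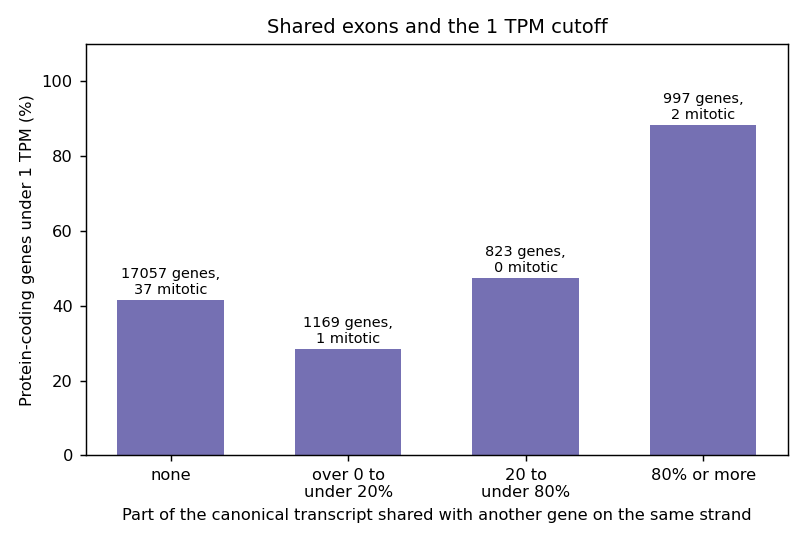
Share of protein-coding genes with a mean under 1 TPM (bars, in %, from 0), by how much of the canonical transcript other genes on that strand also hold, with the number of genes and of mitotic genes in each class. The bar reaches 88.4% for the 997 genes with at least 80% shared, the class of PRC1 and NUSAP1, and 41.5% for genes without a shared base.

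The genes of anaphase and ubiquitination held both the high and the low end. CDC20 (ENSG00000117399, chromosome 1 from 43358981 to 43363203), the activator of the anaphase-promoting complex, was measured at 465, 492 and 357 TPM, a mean of 438 ± 71.7 TPM (SD, n = 3). UBE2C, the ubiquitin-conjugating enzyme of that complex, was measured at 357, 321 and 283 TPM, and PTTG1, securin, at 422, 420.3 and 393 TPM. ESPL1 (ENSG00000135476, chromosome 12 from 53268299 to 53293638), the separase that securin holds inactive, was measured at 30.7, 36.2 and 26.1 TPM and was the lowest of the 38 genes without largely shared exons. PTTG1 stood above ESPL1 by 13.7-, 11.6- and 15.1-fold (log2 3.74 ± 0.19, SD, n = 3), the largest ratio among the 19 pairs given here. PTTG1 had the smallest coefficient of variation between replicates of the 38 genes, 3.92%.

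TOP2A, the topoisomerase that untangles sister chromatids, was measured at 376, 284 and 305 TPM, and MKI67, which encodes the proliferation marker Ki-67, at 219.9, 250.3 and 162 TPM. TOP2A was the higher in every replicate, but the ratio of MKI67 to TOP2A varied more than that of any other pair, at 0.585, 0.880 and 0.531. The transcription factors FOXM1 and MYBL2 (B-MYB) were measured at 185, 195 and 142 TPM and at 208, 223 and 158 TPM. Their ratio varied least of all pairs, at 0.889, 0.872 and 0.895 (log2 -0.18 ± 0.02, SD, n = 3).

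**Figure D3:**
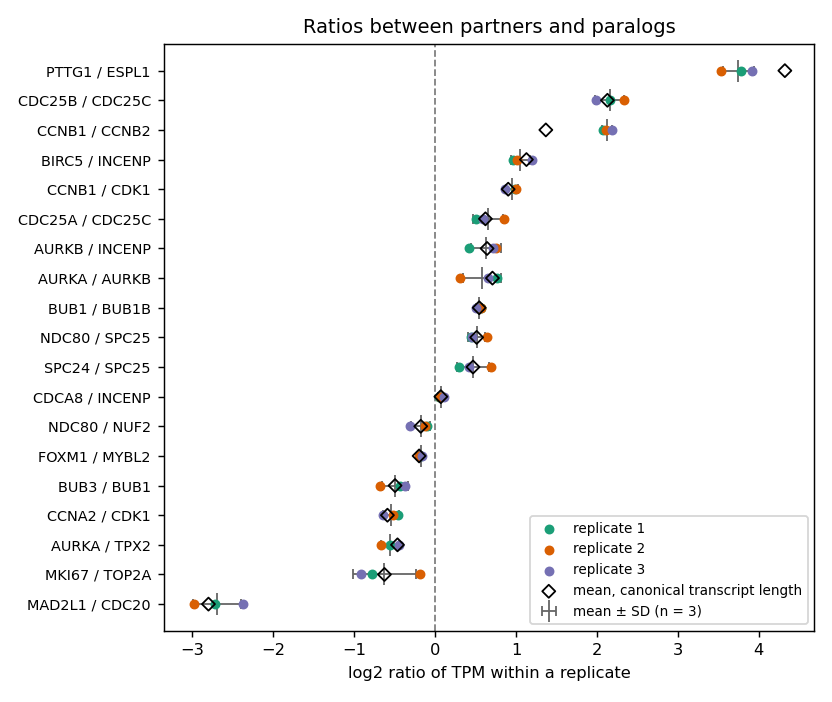
The log2 ratio of the TPM of 2 genes within each replicate (points) with the mean and SD over 3 replicates, for 19 pairs of partners or paralogs, and the mean with each gene's canonical transcript length in place of the length behind the deposited TPM (open diamonds). In all 19 pairs the same gene is higher in every replicate and with either length, from a log2 ratio of -2.69 for MAD2L1 to CDC20 up to 3.74 for PTTG1 to ESPL1.

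In 20 of 20 pairs chosen for these comparisons, KIF23 and PRC1 included, the same gene was higher in all 3 replicates. With 3 replicates an exact sign-flip permutation test cannot go below p = 0.25 (two-sided), so no test is given. The SD of the log2 ratio was from 0.02 to 0.39 over the 20 pairs, with a median of 0.14. In the full order of the 40 means, neighbours were called apart where 1 gene was higher in all 3 replicates and the mean log2 difference exceeded its SD. This held for 14 of the 39 neighbouring pairs. CCNB1 was not apart from CDC20, nor CDC20 from PTTG1, nor TOP2A from UBE2C. Genes that are not neighbours were not compared here. In the runs from MYBL2 at 197 TPM to CCNA2 at 160.1 TPM and from NDC80 at 69.0 TPM to CENPA at 60.4 TPM, no gene was apart from its neighbour.

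The length by which reads are divided moved some of these levels. Whole reads came out with the longest annotated transcript of each gene, which for 20 of the 40 genes is the canonical transcript. It is over 1.5 times as long as the canonical one for PLK1 (4126 against 2150 bases), CCNB2 (2495 against 1479) and PTTG1 (1065 against 709). With canonical lengths and all genes rescaled to the same total, PTTG1 moved from rank 3 to rank 1 at 504 ± 13.4 TPM, PLK1 from rank 18 to rank 7 at 201 ± 34.9 TPM and CCNB2 from rank 22 to rank 14 at 142 ± 18.7 TPM (SD, n = 3 each). CCNB1 was then 2.58-fold above CCNB2 in place of 4.36-fold. The direction of every pair ratio stayed as it was. Which transcripts the cells held was not measured.

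The replicates differed in the level of these genes. Replicate 3 was lowest for 33 of the 40 genes and replicate 1 highest for 30. The same shares over all genes are not given, so whether these counts are particular to the 40 genes is not known. The median log2 ratio of replicate 3 to the mean of replicates 1 and 2 was -0.26 over the 40 genes and -0.24 over the 8809 genes at or above 10 TPM. After scaling each replicate by its median ratio over those genes it was -0.02 for the 40 genes. The median SD of log2(TPM + 1) was 0.18 over the 39 genes at or above 1 TPM and 0.19 over all 15640 such genes. Of the 39 genes, 38 lay at or above 10 TPM, and over all 8809 genes at that level the median SD was lower, at 0.16. Over the 38 genes at or above 10 TPM, the coefficient of variation ran from 3.92% to 21.3%, with a median of 12.2%, and the median was 11.3% over all genes at that level. It was 5.01 times the value that counting error alone gives at the median of the 38 genes, each of which had at least 277 reads per replicate, and 3.01 times over all genes at that level.

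Recovered reads were tested against equal TPM in the 3 libraries (chi-square, adjusted after Benjamini and Hochberg over the 15802 genes with 15 or more reads). The test called 34 of the 40 genes, against 54.3% of all genes tested and 76% of those at or above 10 TPM. After median scaling it called 29, against 31.2% and 42.4%. A gene with more reads is called for a smaller difference, and the test compares libraries, not conditions. It covers all 3 libraries at once, so a call does not single out a pair of replicates or a direction. Between replicates 1 and 2, in TPM as deposited, called genes went in either direction. TOP2A, SPC25, BUB3 and CENPE were lower in replicate 2 than in replicate 1, by log2 ratios of -0.40, -0.40, -0.31 and -0.27. AURKB, ESPL1, CDC25A and MKI67 were higher in replicate 2, by 0.27, 0.24, 0.19 and 0.19. All 8 genes passed the chi-square test over the 3 libraries after median scaling, with adjusted p from 3.05e-99 for MKI67 to 0.00586 for CDC25A. These adjusted p do not test the ratios of replicate 2 to replicate 1.

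These differences moved with base composition. Over the 38 genes at or above 10 TPM, which share the same libraries and are not independent replicates, the log2 ratio of replicate 2 to replicate 1 rose with the GC content of the canonical transcript (Pearson's r = 0.742, Spearman's rho = 0.787). Over all 8802 genes at that level with both values, r was 0.311 and rho 0.488. Of the 19 genes with the lower GC content, from 35.1% to 45.7%, none was higher in replicate 2, with a median log2 ratio of -0.18. Of the 19 with the higher GC content, from 46.3% to 60.0%, 9 were higher, with a median of -0.01. Such counts are not given for all genes. For replicate 3 against the mean of replicates 1 and 2 the relation over the 38 genes was negative (r = -0.705, rho = -0.737). Replicates were then scaled within 20 bins of GC content, a choice made after the data were seen, and the chi-square test called 18 of the 40 genes, against 22.6% of all genes tested and 28.7% of those at or above 10 TPM. Part of the relation to GC content stayed in the 38 genes after this scaling. For replicate 2 against replicate 1, r was 0.348 and rho 0.325 over these genes. Over all 8802 genes r was -0.024 and rho -0.007. Of the 8 genes named above, SPC25, ESPL1 and CDC25A no longer passed, with adjusted p of 0.112, 0.0608 and 0.0642, and the other 5 did. The log2 ratio of replicate 2 to replicate 1 went from -0.40 to -0.27 for TOP2A and from 0.19 to 0.17 for MKI67. Their adjusted p in the chi-square test after this scaling were 4.6e-36 and 9.04e-82. CDK1, at 35.4% GC, went from an adjusted p of 4.98e-05 after median scaling to 0.807. Other genes went the other way in the same test. The adjusted p of CENPF went from 0.00372 after median scaling to 8.79e-22 after GC scaling. UBE2C (0.0678 to 0.006) and KIF2C (0.12 to 0.0334) were called after GC scaling but not after median scaling.

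**Figure D4:**
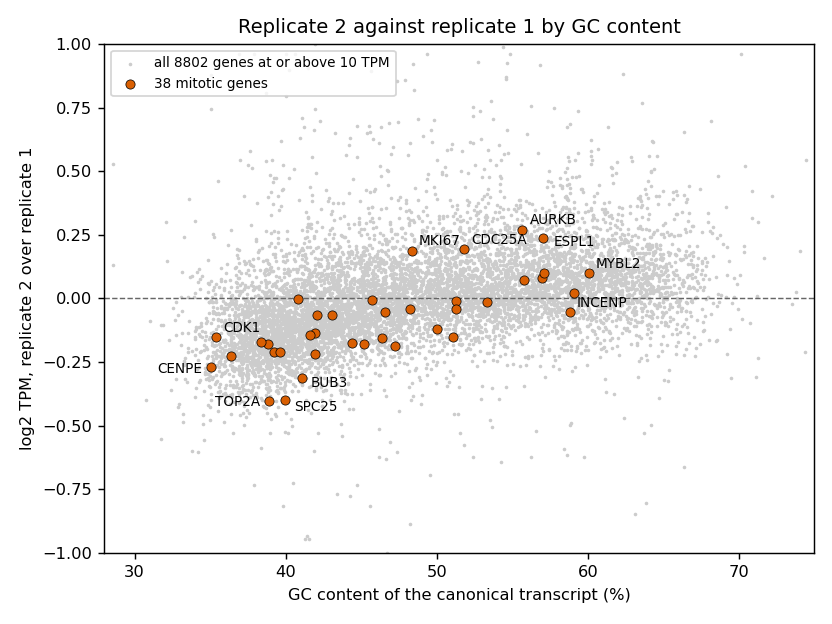
The log2 ratio of TPM in replicate 2 to replicate 1 against the GC content of the canonical transcript (%), for the 38 mitotic genes at or above 10 TPM (orange) and all 8802 genes at that level (grey), of which 58 lie outside the axes. Mitotic genes of low GC content such as TOP2A, SPC25 and CENPE lie under 0, and the 9 above 0 have a GC content of at least 48.3%.

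Other genes of the same pathways were read from 8 lists of 122 genes, of which 121 had a mean at or above 1 TPM and 117 at or above 10 TPM, with a median of 58.5 TPM. All 18 genes of the constitutive centromere network and of centromere loading were at or above 1 TPM, from CENPP at 5.92 TPM to CENPW at 89.3 TPM. So were all 16 of the outer kinetochore and checkpoint, from MAD1L1 with a mean of 1.71 TPM to ZWINT, which recruits checkpoint proteins, at 127 TPM. MAD1L1, a checkpoint protein that binds MAD2, had 1.09, 3.23 and 0.825 TPM from 17, 52 and 11 reads, and without replicate 2 its mean was 0.955 TPM, under the cutoff. Of the canonical transcript of MAD1L1, 99.7% is also annotated in ENSG00000286192. All 18 condensin and cohesin genes were expressed by this cutoff, from SGO1, the protector of centromeric cohesion, at 30.8 TPM to the condensin subunit SMC4 at 213 TPM. The anaphase-promoting complex and its regulators, 18 of 18, ran from ANAPC10 at 4.10 TPM to UBE2S at 158 TPM. The other spindle motors and proteins, 18 of 18, ran from KIF15 at 37.5 TPM to CKAP5 at 172 TPM, and the 8 cytokinesis genes from CIT at 29.6 TPM to ANLN (anillin) at 285 TPM. The 15 other kinases and partners ran from MASTL (Greatwall) at 25.3 TPM to CKS2, a CDK-binding subunit, at 400.1 TPM. Of the 11 DREAM and MuvB regulators, 10 were at or above the cutoff, with TFDP1 the highest at 346 TPM. LIN37 lay under it with 0.932, 1.59 and 0 TPM from 8, 14 and 0 reads, with a mean of 1.26 TPM without replicate 3, and 80.4% of its canonical transcript is shared.

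A list of 15 paralogs was read, most of which act elsewhere in the cell cycle or in the germ line. Of these, 8 had a mean at or above 1 TPM, near the share of 56.7% over all protein-coding genes. Except for TEX14, for which no relative among the 40 genes is named, each had a lower mean than its mitotic relative. CDK2, the kinase of S phase, was measured at 92.2, 91.6 and 80.3 TPM, and TOP2B, a topoisomerase that non-dividing cells also use, at 83.2, 70.4 and 71.5 TPM. PLK2 had 50.8, 49.7 and 39.9 TPM, PLK3 23.6, 26.5 and 20.9 TPM, and MAD2L2, which acts in DNA repair, 15.3, 17.9 and 14.8 TPM. CCNA1, the cyclin A of the male germ line, had 33.2, 26.1 and 22.3 TPM from 306, 247 and 175 reads. MYBL1 had 11.2, 10.6 and 9.28 TPM and MYB 2.48, 2.21 and 1.64 TPM. The germ-line genes CCNB3, AURKC and TEX14 had means of 0.378, 0.279 and 0.244 TPM, PTTG2 and CDC20B had 2 reads each in all, and PLK5 and KIF2B had 0 reads in every replicate. A count of 0 allows up to 0.267 TPM for PLK5 and 0.295 TPM for KIF2B in the shallowest library, at 3 reads. Processed copies could take reads from their parent genes. The annotation holds 14 pseudogenes named after 9 of the 40 genes, of which 7 were at 0 and 2 at or above 1 TPM. Both of the latter derive from UBE2C, and UBE2CP5, at 8.74, 12.4 and 8.52 TPM, reached 3.09% of the mean of UBE2C.

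The 40 genes are spread over 15 chromosomes. Chromosomes 1, 15 and 20 hold 5 each, which is 12.5% of the 40 genes for each of them, against 2061, 601 and 546 of all 20046 protein-coding genes. The genes on chromosome 20 were UBE2C, TPX2, MYBL2, AURKA and CDC25B, with means between 175 and 321 TPM.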

How the data were processed

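RNA-seq of 3 replicates of untreated, empty-vector MCF10A cells was analysed. The authors quality controlled the reads, mapped them to hg38 and counted them with Seq2science, and the submitters' processing notes name fastp, STAR and MultiQC. The gene annotation used for counting, and whether strand was used, are not given in the sources used here. The authors deposited TPM of 62754 genes in each replicate, not pooled, each summing to 1000000, and no value column was left unused. Columns were matched to samples by library names in the labels.

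Gene models were taken from GENCODE release 44 on hg38, which held 62700 of these genes. TPM times the length of the longest transcript, counted with 1 base less per exon, was divided by its smallest value above 0, which gave values within 0.01 of a whole number for 100% of annotated genes, and these were used as reads. Totals are thus estimates. Bases of the canonical transcript that lie in exons of other genes of that strand were counted as shared. For genes with several promoter windows the first listed was used. For 0 reads, the TPM of 3 reads is given as the limit. Intervals cover counting error only.

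The 40 genes, the other lists and the pairs were chosen with earlier results of these data known. All 40 genes are named, from the other mitosis lists the highest, the lowest and those under 1 TPM, all paralogs, and from each marker list the highest gene. Alternatives covered the cutoff, the summary of replicates, pseudocounts, filters, rescalings, transcript length and each replicate left out. Read recovery and the chi-square test were tested on simulated data. Computations ran in Python 3.11.15 with scipy 1.17.1, pandas 2.3.3 and numpy 2.4.6, and plots were drawn with matplotlib 3.10.9.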

Additional observations from a re-analysis of the deposited data

How the results depend on the processing

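No paired analysis was possible because the series holds 1 condition only, in 3 replicates. The count of mitotic genes at or above 1 TPM stayed from 38 to 40 and that of the 122 other genes from 117 to 122 under all cutoffs, summaries, rescalings and left-out replicates tried. The median level of 114 TPM was 131 TPM with protein-coding genes rescaled to the full total and 98.6 TPM with canonical transcript lengths, which moved 35 of 40 levels by over 1 SD, 30 of them downward. All genes were rescaled to the same total there, so levels also fell for genes whose own length did not change. CCNB1, of unchanged length, went from 449 to 366 TPM. The median level was from 108 to 120.3 TPM with a replicate left out.

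The spread between replicates of 0.18 was 0.10 after median scaling and 0.0833 after scaling within GC bins, and from 0.11 (without replicate 3) to 0.21 (without replicate 2) with a replicate left out. The shift of replicate 3 of -0.26 was -0.0713 with protein-coding genes rescaled and -0.0169 after median scaling. Of the 40 genes, 34 differed between replicates beyond counting error, 18 after GC scaling, and from 22 (without replicate 3) to 33 (without replicate 2) with a replicate left out. The counts with a replicate left out were from 13 to 23 after median scaling, lowest without replicate 2, and 14, 13 and 13 after GC scaling without replicates 1, 2 and 3. Shares over all genes are not given for the runs with a replicate left out. Whether these counts are particular to the 40 genes is therefore not known. Fewer libraries give fewer reads to the test. The cause of the other changes was not tested. No pair ratio changed direction, and 4 of 20 moved by over 1 SD with canonical lengths. Few reads stand behind PRC1, NUSAP1, LIN37, MAD1L1, the germ-line paralogs and the pseudogenes.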
